A study of Bos taurus with 16 samples.

Results

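The hypoxia factor family is described here in bovine endometrium, the lining of the uterus, during the weeks after parturition. Its members were taken as every non-control probe that the array design names HIF3A, HIF1A, EPAS1, ARNT, EGLN1, EGLN2, EGLN3, VHL, HIF1AN or CA9. This gave 10 of 16370 named genes, read by 27 of 43653 probes, of which 23 probes of 9 genes passed the filter on dim signals. HIF3A was chosen by its measured log2 levels over the 4 times in these same arrays, so its values are a description without a test. The other genes were chosen as its family, and their tests are those of a fit across all 33182 tested probes.

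The arrays came from 4 fertile cows, each biopsied with forceps in the uterine horns at 4 times after calving, with no treatment in any group. The nominal days were 10, 30, 50 and 100, and the true days were 9 to 10, 29 to 30, 49 to 51 and 99 to 100. Each cow and time had 1 one-colour array, so each time has 4 arrays and each later time is compared with day 10 within the same 4 cows. The biopsies were pieces of whole tissue, and the 4 arrays of a cow were on 1 slide.

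A level in this text is a probe's log2 signal relative to the 75th percentile of its own array, and a difference is a later time minus an earlier one within cows. Levels of different probes are not set against each other. Between 61.1% and 76.9% of probes were well above background on an array, no spot was saturated, and the median signal of an array ran from 51.1 to 154. The lowest medians were those of the day 100 arrays of cows 3 and 2, at 51.1 and 54.8. Markers of the labelled tissue were present, with 14 of 18 epithelial, 8 of 8 stromal and 11 of 12 endothelial markers well above background on all 16 arrays. Markers of smooth muscle, which forms the wall below the lining, were present as well, 9 of 10 on all 16 arrays. Their summed levels differed between cows at one time, most at day 100, when the epithelial list ran from -3.94 to 2.96 and the smooth muscle list from -3.84 to 2.28.

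Hypoxia-inducible factors are transcription factors of an oxygen-regulated alpha subunit and a stable beta subunit, ARNT. In the presence of oxygen, prolyl hydroxylases of the EGLN family mark the alpha subunit, and the ubiquitin ligase component VHL binds the marked protein and leads to its degradation. The asparaginyl hydroxylase HIF1AN reduces its activity as a transcription factor. This control acts on protein, which an RNA array does not measure. HIF1A and EPAS1 encode the main activating alpha subunits, HIF3A encodes an alpha subunit with splice forms that can inhibit the others, and CA9, a carbonic anhydrase of the cell surface, is a widely used target gene of the pathway.

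HIF3A was read by 4 probes placed along transcript NM_001105342, at bases 313, 554, 2499 and 4685. On bovine build HGSC Btau_3.1 they lie on chromosome 18, in ascending order, at chr18:53362145-53362204, chr18:53364827-53365382, chr18:53383542-53383601 and chr18:53385728-53385787. The probe at base 554 has 60 bases but spans 556 bases of the genome. The sequences are shown because the probes differ in what they measured. The first pair is given whole and the second pair as the leading 30 bases, 5′ to 3′, with the stop triplets TAA, TAG and TGA in capitals in those 30 bases.
HIF3A base 313: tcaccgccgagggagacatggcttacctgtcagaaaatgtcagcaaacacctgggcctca
HIF3A base 554: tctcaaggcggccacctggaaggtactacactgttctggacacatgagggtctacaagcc
HIF3A base 2499: tctgtcttTAAgaatgtgggactcTGAtct
HIF3A base 4685: tgctggctcTGAaacccatTAAtctcTAAa
The probe at base 313 has no stop triplet in any of 3 forward frames. The probe at base 4685 has 1 in each of the 3 frames within the bases shown, and that at base 2499 has no frame free of one over its 60 bases. None of the 4 probes shares a run of 20 bases with a probe of another gene on the array.

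HIF3A was low at day 10 and higher at every later time in all 4 cows, as read by the probe at base 4685 (A_73_P038301). Its levels in cows 1 to 4 were -6.90, -5.38, -5.62 and -8.73 at day 10, where 2 of 4 arrays were well above background. They were 2.45, -2.26, -2.95 and -3.44 at day 30. At day 50 they were -0.01, 2.79, -0.32 and -0.40, and at day 100 they were -1.09, 3.44, 1.91 and 1.66, all well above background. The later times did not overlap day 10, and neighbouring later times overlapped each other.

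On the scanner's linear scale the same probe had processed signals of 9, 28, 24 and 4 at day 10 in cows 1 to 4. The signals were 5861, 230, 150 and 107 at day 30, 1118, 6882, 929 and 1067 at day 50, and 479, 7797, 2738 and 3567 at day 100. The day 10 signals were thus near the lower end of what the array measures, and the later ones well within its range.

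The mean level was -6.65 ± 1.53 at day 10, -1.55 ± 2.71 at day 30, 0.52 ± 1.53 at day 50 and 1.48 ± 1.89 at day 100 (SD, n = 4 each). Relative to day 10, HIF3A was 5.11 ± 1.25 higher at day 30, 7.17 ± 1.25 higher at day 50 and 8.13 ± 1.25 higher at day 100 on the log2 scale (SE, 4 of 4 cows each). Since 2 of 4 arrays at day 10 were not well above background, the size of these differences depends on how background is handled, and with normexp they were 2.77, 4.55 and 5.43. Cows 2, 3 and 4 were higher at each successive time. Cow 1 was highest at day 30 and lower afterwards, and its step from day 10 to day 30 was 9.35. Without the day 30 array of cow 1 the difference between day 30 and day 10 was 3.40.

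The order of the mean levels was day 10, day 30, day 50 and day 100, and only day 10 did not overlap the time after it. The difference was 2.07 ± 1.25 between day 50 and day 30, 3.03 ± 1.25 between day 100 and day 30, and 0.96 ± 1.25 between day 100 and day 50 (SE, 3 of 4 cows each). For orientation, 3.62% of all probes were higher without overlap at day 30 than at day 10, 8.64% at day 50 and 4.53% at day 100. In bulk biopsies a change in the cells present and a change in RNA per cell cannot be told apart.

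**Figure D1:**
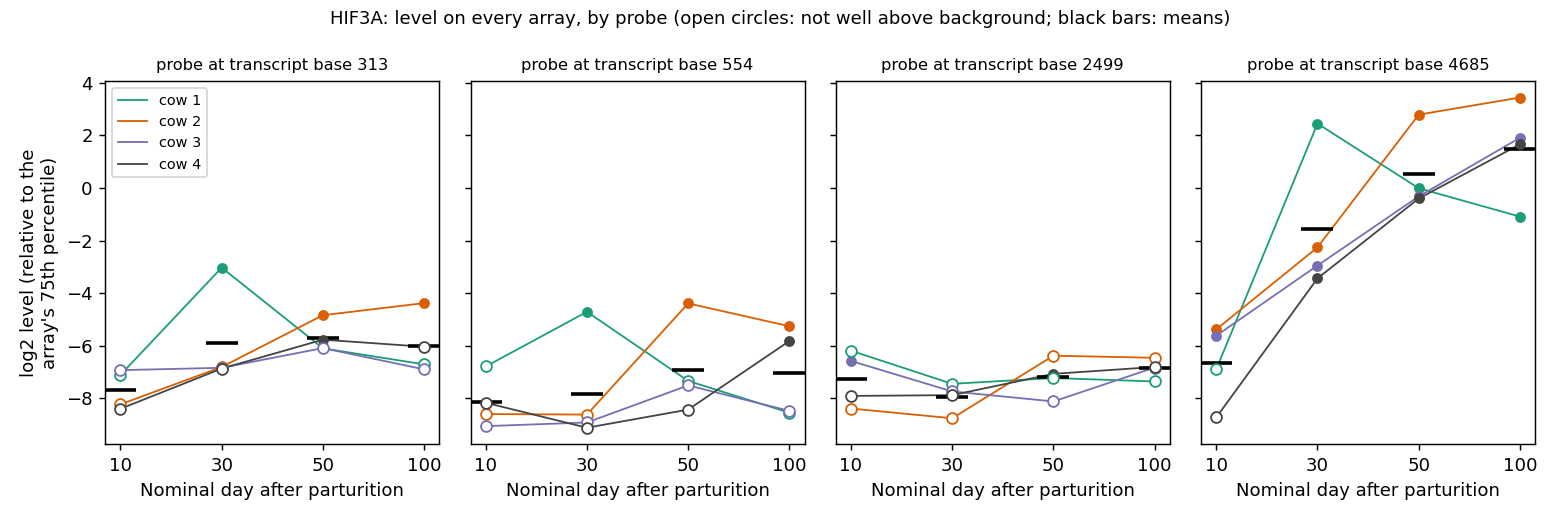
HIF3A level on each of 16 arrays for its 4 probes, as log2 relative to the array's 75th percentile, by nominal day after parturition, with a line per cow, open circles for spots not well above background and black bars for means. Only the probe at base 4685 climbs to levels above 0, while the other 3 stay below -3 on every array.

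The other HIF3A probes were dim and showed smaller differences. The probe at base 313 was well above background on 5 of 16 arrays, that at 554 on 4, that at 2499 on 2 and that at 4685 on 14. At base 313 the level was -7.67 ± 0.76 at day 10, -5.89 ± 1.90 at day 30, -5.70 ± 0.59 at day 50 and -6.01 ± 1.14 at day 100 (SD, n = 4 each), and none of the 4 arrays at day 10 stood well above background. It was well above background on 1 of 4 arrays at day 30, on 3 at day 50 and on 1 at day 100. At day 50 this probe was at least 2.49-fold higher than at day 10. This bound sets the later mean against, on each day 10 array, the higher of the lowest signal well above background and the probe's own. The day 30 mean rests on cow 1, at -3.03, with the other cows at -6.81, -6.84 and -6.87, none of them well above background.

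At base 554 the difference from day 10 was 0.31 ± 1.07 at day 30, 1.24 ± 1.07 at day 50 and 1.13 ± 1.07 at day 100 (SE), and all groups overlapped. With the smooth muscle minus the epithelial level of each array as a covariate, called the tissue covariate here, the first of these was -0.02. At base 2499, which was not among the tested probes, a fit without the filter gave -0.69, 0.07 and 0.40 for the same differences (SE 0.52). Across the 16 arrays the probe at base 4685 correlated with those at 313, 554 and 2499 at r = 0.80, 0.61 and 0.30, a description of arrays that share 4 cows. At day 30 cow 1 was the highest cow on the probes at 313, 554 and 4685, and at day 50 cow 2 was the highest on all 3.

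The large difference in HIF3A therefore rests on 1 of 4 probes. Probes of the next gene on the array downstream, PPP5C, a protein phosphatase, lie 17112 to 22670 bases beyond it and did not follow it. Their correlation with the HIF3A probe was -0.18 to -0.41 across 16 arrays. Which transcript form of HIF3A carries base 4685 in this tissue was not analysed here.

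HIF1A, the widely expressed alpha subunit, had no difference that passed the threshold at any time. Its probe at base 3863 (A_73_103797) read 3.25, 1.89, 1.93 and 3.31 in cows 1 to 4 at day 10 and 2.04, 2.27, 2.23 and 2.14 at day 30. It read 2.76, 1.95, 3.51 and 2.26 at day 50 and 4.31, 1.54, 2.93 and 2.57 at day 100. The times overlapped, and the cows lay closest together at day 30 and farthest apart at day 100. The difference from day 10 was -0.42 at day 30 (95% interval -1.44 to 0.59), 0.02 at day 50 (-0.99 to 1.04) and 0.24 at day 100 (-0.77 to 1.26), with limma adjusted p of 0.701, 0.984 and 0.766. With the tissue covariate the differences at days 50 and 100 were -0.32 and -0.04, so they have no settled sign. The 3 HIF1A probes moved together, with r of 0.97 to 0.98 over 16 arrays.

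EPAS1 encodes the alpha subunit HIF-2α, known from endothelium and from the uterine lining. Its probe at base 4632 (A_73_103471) read 3.53, 1.52, 2.36 and 3.58 at day 10 and 1.94, 2.01, 2.35 and 1.87 at day 30 in cows 1 to 4. It read 2.67, 2.19, 3.07 and 2.57 at day 50 and 4.27, 1.74, 3.71 and 3.04 at day 100. Again the times overlapped. The difference from day 10 was -0.71 at day 30 (95% interval -1.63 to 0.21, limma adjusted p = 0.469), -0.13 at day 50 (adjusted p = 0.906) and 0.44 at day 100 (-0.48 to 1.36, adjusted p = 0.527). The other EPAS1 probes, at bases 1383 and 2519, gave -1.31 and -1.62 at day 30 with adjusted p of 0.40 and 0.439. The EPAS1 probes correlated at r = 0.80 to 0.95.

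The level of these alpha subunits went with the tissue markers of the biopsy. EPAS1 correlated with the epithelial list at r = 0.83 and HIF1A at r = 0.81 over 16 arrays of 4 cows. The cow with the lowest epithelial list also had the lowest EPAS1 at 4 of 4 times, and the cow with the highest list had the highest EPAS1 at 3. HIF3A correlated with the smooth muscle list at r = 0.19 over all arrays, times pooled. The cow with the highest smooth muscle list had the highest HIF3A at 4 of 4 times, and the cow with the lowest list the lowest HIF3A at 2. The smooth muscle list spanned -1.73 to 1.84 (day 10), -0.32 to 2.10 (day 30), -1.74 to 1.65 (day 50) and -3.84 to 2.28 (day 100).

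With the tissue covariate HIF3A at base 4685 was 4.44 ± 1.00 higher at day 30, 7.91 ± 1.00 at day 50 and 8.76 ± 0.99 at day 100 than at day 10 (SE). Without the covariate these differences were 5.11, 7.17 and 8.13. The covariate holds no immune cell list. The mean neutrophil list was 2.77 at day 10 and -1.21, -1.51 and -0.055 at days 30, 50 and 100. The macrophage list was 1.715 at day 10 and -0.75, -0.20 and -0.76 later. At day 10 cows 1 and 4 had the lowest HIF3A, -6.90 and -8.73, and the highest neutrophil lists, 4.76 and 5.26. The part of the cell make-up in the differences between cows and between times was not tested.

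**Figure D2:**
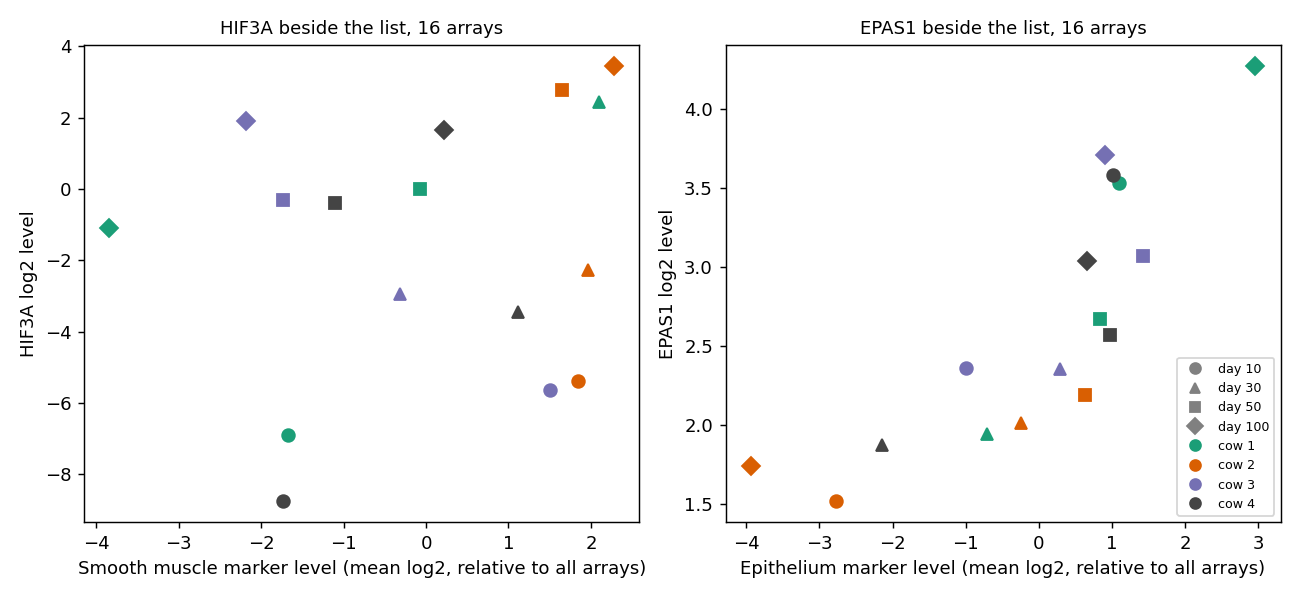
Log2 level of HIF3A beside the smooth muscle list (left) and of EPAS1 beside the epithelial list (right) on 16 arrays, with symbols for the nominal day and colours for the cow. HIF3A at day 10 lies below all later days, which overlap each other, and its correlation with the list over all arrays, times pooled, is r = 0.19. EPAS1 climbs with the epithelial list (r = 0.83).

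ARNT, the beta subunit that pairs with each alpha subunit, was dim. Its tested probe at base 1673 was -0.74 ± 0.32 at day 100 relative to day 10 (SE, limma adjusted p = 0.176), lower in 3 of 4 cows, and the times overlapped. Its other probe, at base 1048, was well above background on 2 of 4 arrays at day 10 and on 1 of the 12 later ones, at day 50.

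EGLN1, the main oxygen-sensing prolyl hydroxylase, was higher at days 50 and 100 than at day 10 in 4 of 4 cows on each of its 3 probes, without overlap, yet no probe passed the threshold. The brightest, at base 1946 (A_73_110713), read 1.76, 1.91, 1.57 and 1.80 at day 10 in cows 1 to 4, and 2.16, 1.69, 1.39 and 2.26 at day 30. It read 2.34, 2.44, 1.96 and 1.92 at day 50 and 2.09, 1.96, 1.96 and 2.56 at day 100. Day 30 overlapped day 10, and the later times lay just above it.

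Across the 3 EGLN1 probes the difference between day 50 and day 10 was 0.41 to 0.50 and that between day 100 and day 10 was 0.39 to 0.59. The adjusted p at day 100 was 0.109, 0.151 and 0.282 for the probes at bases 1220, 1479 and 1946, with a 95% interval of 0.06 to 1.01 for the probe at 1479. Of all probes, 8.64% were likewise higher without overlap at day 50 than at day 10, and 4.53% at day 100. The EGLN1 probes correlated at r = 0.88 to 0.90.

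EGLN2, a prolyl hydroxylase known as nuclear, had probes that differed among themselves. The probe at base 1747 read 3.17 to 3.74 on all 16 arrays. Its difference between day 100 and day 10 was -0.18 ± 0.17 (SE, limma adjusted p = 0.529), lower in 4 of 4 cows. The probes at bases 286 and 772 gave -1.85 ± 0.63 (adjusted p = 0.0992) and -1.42 ± 0.59 (adjusted p = 0.16), lower at day 100 in 4 of 4 cows, and that at 549 gave -0.24 ± 0.24 (adjusted p = 0.546). The correlation between pairs of EGLN2 probes ran from -0.29 to 0.64. On the mean every EGLN2 probe lay below day 10 at each later time, by differing amounts, and none passed the threshold.

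EGLN3, a prolyl hydroxylase that is itself induced by hypoxia, was seen at day 10 only. Its 1 probe, at base 977 (A_73_111753), was well above background on 3 of 4 arrays at day 10 and on 0 of 12 later arrays. It read -4.09, -6.52, -6.56 and -4.23 at day 10, against -7.48, -7.33, -7.72 and -7.59 at day 30. It read -8.56, -7.06, -7.47 and -8.08 at day 50 and -7.77, -5.93, -6.89 and -7.16 at day 100. Day 10 was apart from days 30 and 50, as it was for 4.89% and 8.24% of all probes in this direction, and overlapped day 100. Among the cows, 1 and 4 were the high ones at day 10.

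On the mean the EGLN3 probe was at least 2.62-fold lower at day 30, 2.86-fold lower at day 50 and 2.32-fold lower at day 100 than at day 10. The probe was lower in 4 of 4 cows at days 30 and 50 and in 3 of 4 at day 100. It did not pass the filter on dim signals, and a fit without the filter gave limma adjusted p of 0.196, 0.0866 and 0.176. Cows 1 and 4 also had the highest neutrophil lists at day 10, 4.76 and 5.26 in cows 1 and 4 against 0.85 and 0.22 in cows 2 and 3, with all 4 measured neutrophil markers well above background on all 16 arrays. The part of neutrophils in the EGLN3 signal was not tested.

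HIF1AN and VHL, the asparaginyl hydroxylase and the recognition subunit of the ligase, had no call. HIF1AN at base 943 was -1.02 ± 0.34 at day 100 relative to day 10 (SE, adjusted p = 0.0942), lower in 4 of 4 cows without overlap, which held for 6.51% of all probes. It was well above background on 1 of 4 arrays at day 100 and on 3 of 4 at day 10. At day 100 it read -7.99 and -7.68 in cows 2 and 3, against -6.57 and -6.39 in cows 1 and 4. The day 100 arrays of cows 2 and 3 had the lowest median signals, and the part of this in the difference was not tested. The brighter HIF1AN probe at base 761 gave -0.29 ± 0.19 (adjusted p = 0.356). The VHL probes, which share part of their sequence, differed from day 10 by -0.10 to 0.37 at the later times, with adjusted p of 0.60 to 0.899. The 95% interval of VHL at base 713 at day 100 was -0.70 to 0.51.

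**Figure D3:**
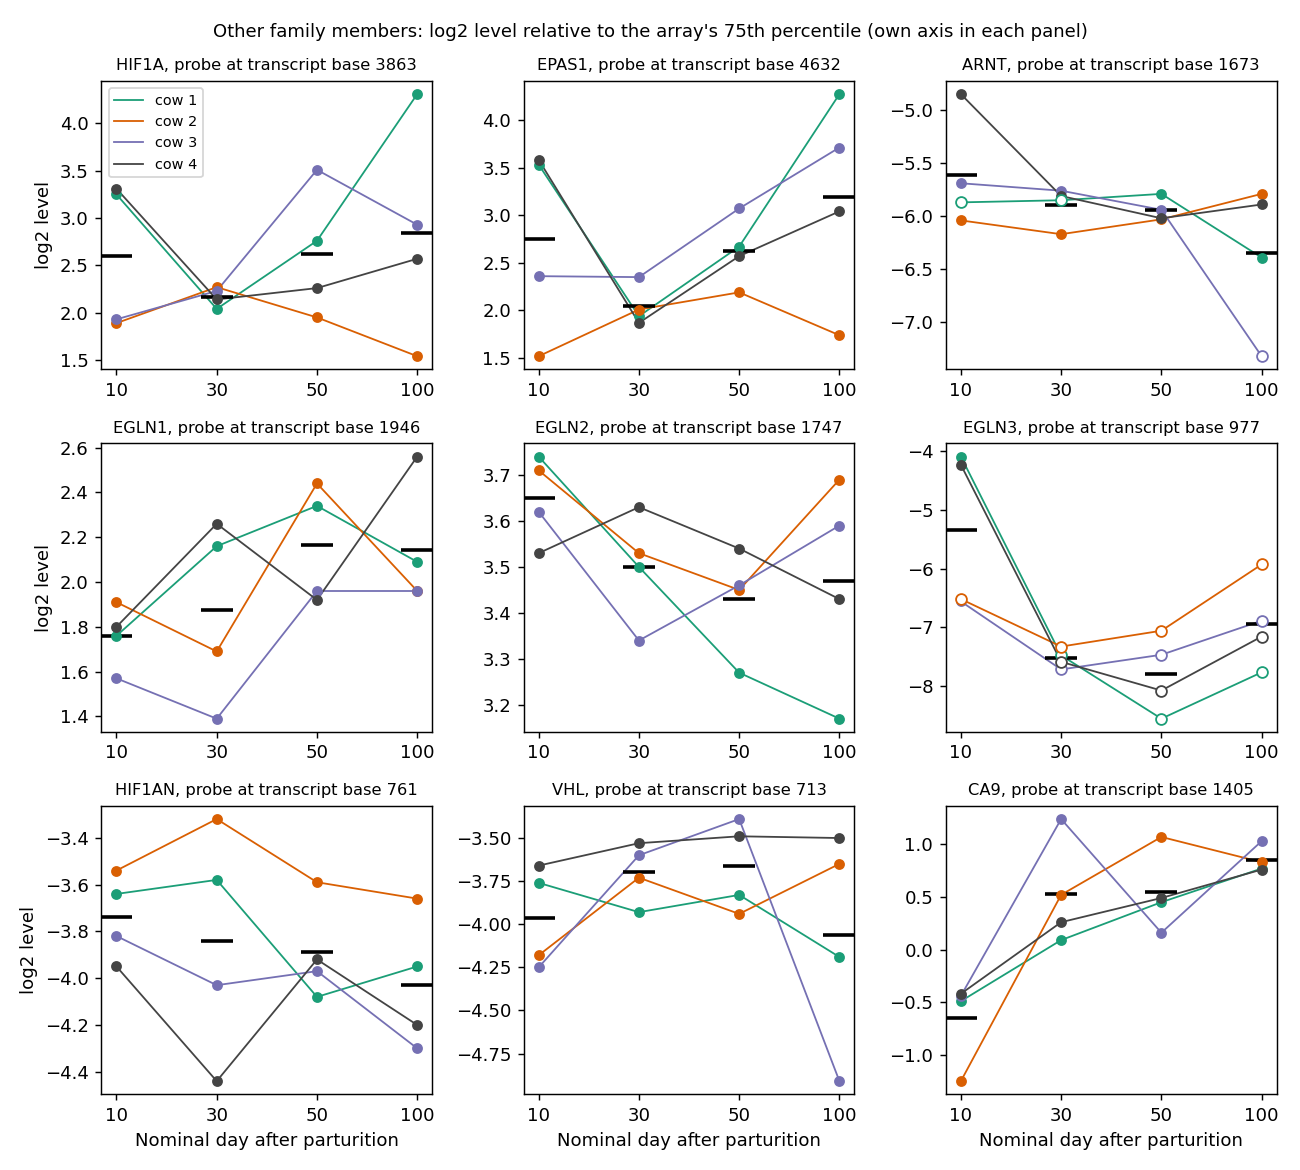
Log2 level of 1 probe for each of the other 9 genes on 16 arrays, by nominal day, with a line per cow, open circles for spots not well above background and black bars for means. CA9 at base 1405 lies above its day 10 values at every later day, and HIF1A and EPAS1 spread most at day 100. EGLN3 is filled for 3 of 4 cows at day 10 and open later.

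CA9 was the member that passed the threshold, in 1 of the 6 differences. Its probe at base 1405 (A_73_P284671) read -0.49, -1.25, -0.44 and -0.42 in cows 1 to 4 at day 10 and 0.09, 0.52, 1.24 and 0.26 at day 30. It read 0.45, 1.07, 0.16 and 0.49 at day 50 and 0.77, 0.83, 1.03 and 0.76 at day 100. All 12 later values were above all 4 values of day 10, and the cows were closest together at day 100. Of all probes, 3.62% were higher without overlap at day 30 than at day 10, 8.64% at day 50 and 4.53% at day 100.

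CA9 rose by 1.50 ± 0.30 at day 100 relative to day 10 (SE, 95% interval 0.84 to 2.15, higher in 4 of 4 cows, limma adjusted p = 0.0228). The differences of 1.18 ± 0.30 at day 30 (adjusted p = 0.113) and 1.19 ± 0.30 at day 50 (adjusted p = 0.0695) did not pass. The call at day 100 was lost without any 1 cow, with adjusted p of 0.0517 to 0.104, and with days 100 and 10 fitted alone (adjusted p = 0.136). In all it was lost in 9 of 30 alternatives. Removal of a single array ended it for cows 1 and 3 at day 10 and cows 3 and 4 at day 100, with adjusted p of 0.0578, 0.0601, 0.065 and 0.0598.

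Macrophage markers fell over the same comparison, 11 of 11 by limma at day 100, where 3.1% of all genes fell. At days 30 and 50 the calls were 5 of 11 each, where 65 and 170 of 13208 genes fell. Their list stood at -1.38 to 0.02 at day 100 and at 0.80 to 2.74 at day 10, with 10 of 11 genes well above background on all 16 arrays. The part of this in the CA9 difference was not tested.

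The 2 readable CA9 probes are shown because they differed. They lie on chromosome 8 of build HGSC Btau_3.1 in ascending order, at chr8:62509827-62509886 and chr8:62511090-62511149, the probe at base 968 whole and that at base 1405 as its leading 30 bases, where capitals mark a stop triplet.
CA9 base 968: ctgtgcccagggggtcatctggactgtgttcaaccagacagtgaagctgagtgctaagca
CA9 base 1405: gcTGAagactgtcctgttcattacaccact
The probe at base 968 was well above background on all 16 arrays and gave 0.71, 0.86 and 0.48 at days 30, 50 and 100 relative to day 10, with SE 0.63 and adjusted p of 0.633, 0.502 and 0.655. Its interval at day 100, -0.90 to 1.86, includes the value of the probe at base 1405, and the probes correlated at r = 0.50. The probe at base 258 was well above background on 1 of 16 arrays, cow 1 at day 30.

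**Figure D4:**
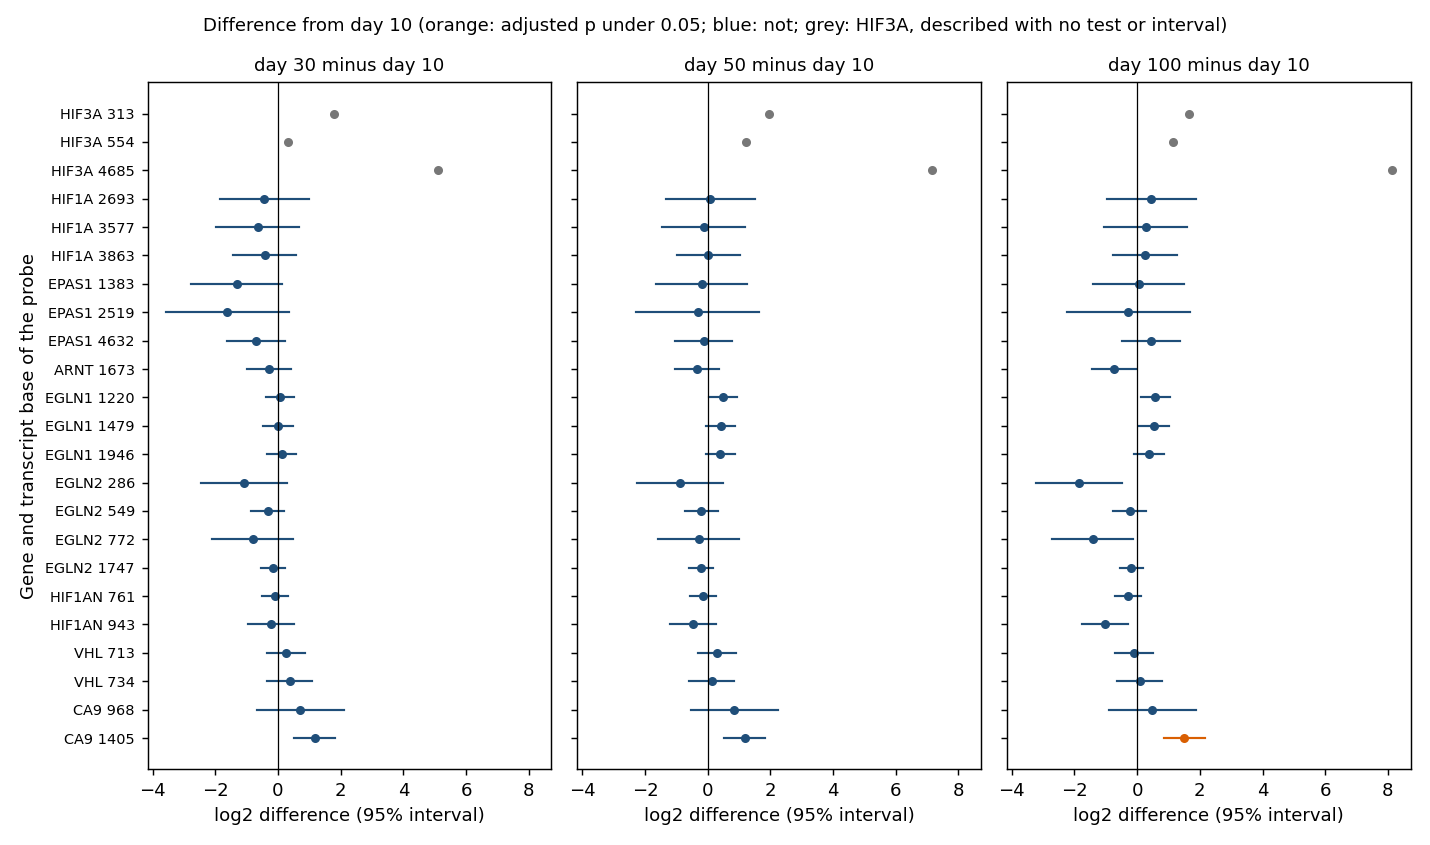
Log2 difference from day 10 at days 30, 50 and 100 for the 23 tested probes, labelled by gene and transcript base, with 95% intervals for all genes but HIF3A, which is shown in grey as a description. The CA9 probe at base 1405 at day 100 is the one that passed the threshold of 0.05 (orange), and the EGLN1 probes lie to the right of 0 at days 50 and 100.

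Over the 20 tested probes other than those of HIF3A, 1 passed between day 100 and day 10, against 4.6% of all probes. None passed by limma between day 30 and day 10, where 0.419% of all probes did, or between day 50 and day 10, where 1.65% did. At an unadjusted p under 0.05 the counts were 1, 2 and 7 of 20 for days 30, 50 and 100 against day 10, beside 14%, 18.6% and 25.7% of all probes. Between the later times none passed, and no probe of the array did, while 0 of 20 were under 0.05 unadjusted between days 50 and 30, 4 between days 100 and 30 and 0 between days 100 and 50, beside 9.33%, 12.8% and 3.14% of all probes. The F test over all times called 0 of 20 against 1.03% of all probes, with 2 of 20 under 0.05 unadjusted beside 18.9% of all probes. The median difference of the 20 probes was -0.25 at day 30, -0.13 at day 50 and 0.06 at day 100, beside -0.01, -0.03 and -0.07 for all probes.

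Genes that HIF proteins are known to activate, family members aside, gave few calls, and those were lower than at day 10. CA9, also such a target, is not in this list and was called higher at day 100, as given above. Of 54 listed targets 51 were measured. At day 30 none passed by limma, against 0.5% of all genes. Of the 51 differences 40 were below 0, beside 6400 of 13208 for all genes, with a median of -0.43 against 0.02. At day 50, 2 fell and 49 did not pass, with a median of -0.46 against -0.03, where 1.29% of all genes fell. CA12, 1 of these 2, passed the filter on dim signals through days 10 and 30 alone, so its call gives no support. At day 100, 2 fell and 49 did not pass, with a median of -0.33 against 0.00, where 3.1% of all genes fell. Over targets and regulators together 12, 19 and 20 of 67 genes were under 0.05 unadjusted at days 30, 50 and 100. Beside this stand 14%, 18.6% and 25.7% of all probes, in either direction. Of the listed genes 11, 17 and 17 were lower, and the share of all genes lower at this threshold was not counted. When single cows or arrays were left out, the number of these genes that fell ranged from 0 to 5 at day 50 and from 0 to 7 at day 100.

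RORA, a nuclear receptor of circadian and metabolic control, fell by 2.16 on the log2 scale at day 50 (SE 0.35, limma adjusted p = 0.0203) and by 1.78 at day 100 (SE 0.35, adjusted p = 0.0223). Its level was -2.09, -1.60, -2.14 and -2.31 at day 10 in cows 1 to 4, and -4.20, -4.43, -4.30 and -3.83 at day 50. At day 100 it was -4.42, -2.95, -3.60 and -4.29. All 4 cows were lower at both times, without overlap with day 10, as held for 8.24% of all probes at day 50 and 6.51% at day 100. The call was lost in 8 of 30 alternatives at day 50 and in 11 of 30 at day 100.

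ANGPTL4, a secreted inhibitor of lipoprotein lipase, fell by 3.06 at day 100 (SE 0.58, adjusted p = 0.02), with levels of -2.40, -1.16, -0.04 and 0.34 at day 100 against 3.1, 2.05, 1.50 and 2.31 at day 10. CA12, a carbonic anhydrase of the same family as CA9, was at least 2.03-fold lower at day 50 than at day 10. It was well above background on 3 of 4 arrays at day 10, 1 of 4 at day 30 and 0 of 4 at days 50 and 100. It thus passed the filter through the earlier days alone, which favoured a fall in advance. The measured means were -8.67 at day 50 and -5.84 at day 10, and their difference of -2.83 had a limma adjusted p of 0.0441. The CA12 call was lost in 21 of 29 alternatives (adjusted p up to 0.661, with normexp), 16 of them with a single cow or array left out, and that of ANGPTL4 in 7 of 30.

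By group, the 19 genes of glucose uptake and glycolysis had no call. At day 100, 16 of 19 lay below 0, beside 6585 of 13208 for all genes. PFKFB3, which makes an activator of glycolysis, was at -1.65 ± 0.48 (SE, adjusted p = 0.0695) and the glucose transporter SLC2A3 at -1.35 ± 0.36 (adjusted p = 0.0575), while the transporter SLC2A1 was at 1.73 ± 0.51 (adjusted p = 0.0702). Of the 9 genes of vessels and iron 1 fell at day 100, and VEGFA, the main vessel growth factor, was at 0.05 ± 0.49 (adjusted p = 0.96). Of the 23 other targets 2 fell at day 50, CA12 with its limit given above among them, and 1 at day 100.

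Of 18 listed partners and regulators of HIF proteins, 16 were measured, and none passed by limma at any time. Their median difference from day 10 was 0.00 at day 30, 0.02 at day 50 and 0.22 at day 100. Among them CITED2, which competes with HIF proteins for their coactivator, was at 1.06 ± 0.77 at day 100 (SE, adjusted p = 0.404), and ARNT2, a relative of ARNT, was at -1.07 ± 0.39 (adjusted p = 0.118). The macrophage list moved with these comparisons, as given beside CA9, and its part in the lower target genes was not tested.

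**Figure D5:**
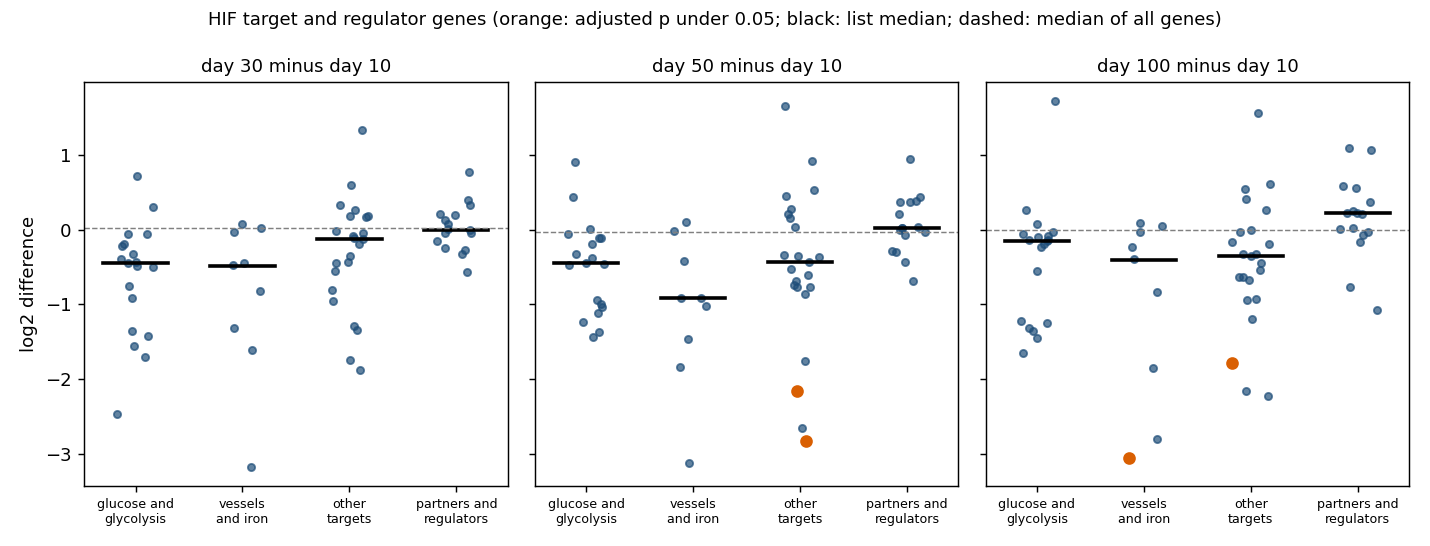
Log2 difference from day 10 for target genes of glucose and glycolysis (19), vessels and iron (9) and other functions (23) and for partners and regulators (16), at days 30, 50 and 100, with orange points past the threshold, black bars for list medians and a dashed line for the median of all genes. The orange points, 2 at day 50 and 2 at day 100, all lie below 0. At day 50 they include CA12, which passed the filter on dim signals through the earlier days alone. CA9, which was called higher at day 100, is not among the genes shown.

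The genes whose pattern was most like that of HIF3A at base 4685 were sought among 13085 genes with 1 probe each, by Pearson correlation over the 16 arrays. The 10 highest were TRPM3 (0.93), RAC3 (0.92), NUDT18 (0.91), UBTF, OGFOD2, PNMT and PER1 (0.90 each), TRIM2 and NXPE3 (0.89 each) and NAA35 (0.88). In all, 65 genes were over 0.8 and 4 over 0.9. These correlations are over arrays of 4 cows and 4 times and are a description.

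TRPM3, a cation channel, had mean levels of -4.26, -2.47, -1.28 and -1.67 at days 10, 30, 50 and 100, and PER1, a component of the circadian clock that glucocorticoids induce, had 2.46, 3.00, 4.24 and 4.17. PNMT, the enzyme that makes adrenaline from noradrenaline, had -3.93, -2.49, 0.60 and 0.77. In TRPM3 as in HIF3A cow 1 was highest of the 4 cows at day 30 (-0.70) and lowest at day 100 (-3.08), and in PNMT cow 1 was likewise highest at day 30 (0.18) and lowest at day 100 (-1.79). Both genes were picked by their correlation with HIF3A on these same arrays, so this shared order of cows adds no support.

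Other probes of the same genes were mixed. The 3 PNMT probes correlated with HIF3A at 0.90, 0.88 and 0.87, both TRPM3 probes at 0.93 and 0.89 and both NXPE3 probes at 0.89 and 0.88. The other NUDT18 probes were at 0.06 and -0.14, the other OGFOD2 probe was at 0.05, the other PER1 probes were at 0.67, 0.37 and 0.45, and 3 of the 5 UBTF probes were between -0.32 and -0.11. Without cow 2, 3 of the 10 genes were still among the 10 highest.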

How the data were processed

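Endometrial RNA of 4 cows at 4 times was hybridised to 16 one-colour Agilent arrays. Per the file headers, the deposited processed intensity had its background subtracted and its trends across the array removed by Agilent Feature Extraction 11.5.1.1, while the submitters' processing notes name version 10.5.1.1. The authors also deposited a log2 value table, which matched the scanner values (r across probes 0.9998 to 1, column medians -0.16 to 0.21) and served as an alternative.

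Of 45220 spots per array 1417 controls and 4 to 125 nonuniform spots were left out, and no nonuniform spot was a family probe. Levels are the log2 of the processed intensity minus the array's percentile 75, spots of a probe averaged. Only probes flagged well above background on 4 or more of 16 arrays were fitted, by limma 3.58.1 in R 4.3.3, on time and cow, 9 residual degrees of freedom, two-sided, Benjamini-Hochberg adjusted over 33182 probes, threshold 0.05. The median standard error was 0.36, so precision is limited by the number of arrays. The fit was tested on simulated data.

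The labels state that each cow gave all 4 biopsies, so the cow is a replicate block. Deviations from the time means correlated at a median of 0.12 within cows (24 pairs) and -0.04 between cows (72 pairs).

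Members and gene lists were chosen with earlier results of these data known. Named were all family probes, every target or regulator gene past the threshold (1 probe per gene, the highest mean signal) and the 10 genes most correlated with HIF3A. Genes named beyond this rule (PFKFB3, SLC2A3, SLC2A1, VEGFA, CITED2, ARNT2 and PPP5C) were picked after their values were seen. Symbols follow the array design, updated through the gene table of assembly ARS-UCD2.0. Probe sequences and coordinates are those of the deposited files.

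The alternatives were other background corrections, scalings, filters and weights, no cow term, a tissue covariate, and removal of each cow or array.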

Additional observations from a re-analysis of the deposited data

Results flagged for a closer look

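Among 92 groups of 4 arrays, 1 per tested family probe and time, 5 had a cow far from the other 3 relative to the range of the group, and chance gives about 1 in 20. HIF3A at base 313 read -3.03 in cow 1 at day 30, with the nearest cow at -6.81. HIF3A at base 554 read -4.71 in the same cow and time, with the nearest at -8.62. HIF3A at base 4685 read 2.79 in cow 2 at day 50, with the nearest at -0.01. VHL at base 734 read -5.80 in cow 1 at day 30, with the nearest at -5.06. CA9 at base 1405 read -1.25 in cow 2 at day 10, with the nearest at -0.49.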

How the results depend on the processing

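No called difference, and no HIF3A difference at base 4685, changed sign in any alternative. With the tissue covariate several family differences that were not called did change sign. Among them were HIF1A at base 3863 (-0.32 at day 50, -0.04 at day 100) and HIF3A at base 554 (-0.02 at day 30). EPAS1 at base 1383 went from 0.05 to -0.38 at day 100 relative to day 10. EPAS1 at base 4632 went from 0.58 to -0.05 between days 50 and 30. With background correction by normexp the HIF3A difference from day 10 was 4.55 at day 50 and 5.43 at day 100, and over all alternatives that at day 30 ran from 2.77 to 5.95. When single cows or arrays were left out, HIF3A ranged over 3.40 to 5.95, 6.69 to 7.79 and 7.38 to 9.35 for days 30, 50 and 100 against day 10, over 1.07 to 3.77 and 2.14 to 5.22 for days 50 and 100 against day 30, and over 0.36 to 2.18 for day 100 against day 50. A filter of well above background on all arrays gives no HIF3A value.

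The count of family probes called between day 100 and day 10 ranged over 0 to 1 when single cows or arrays were left out and was 0 with those times alone. With array weights it was 1 between day 50 and day 10 and 1 over all times, and with median scaling it was 1 over all times. Without the cow as replicate block CA9 stood at 1.50 with an adjusted p of 0.0135, and the block changed no other call of a member. The cause of these shifts was not tested.

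Over all alternatives 0 to 13 target and regulator genes fell and 0 to 2 rose at day 50, the 13 with array weights, and 0 to 7 fell and 0 to 2 rose at day 100. With single cows or arrays left out 0 to 5 fell at day 50 and 0 to 7 at day 100. When the day 100 array of cow 2 was left out, 5 fell at day 50 and 7 at day 100. The adjusted p of CA12 ran from 0.0074 to 0.661 and that of CA9 at day 100 from 0.0133 to 0.136. Of the 10 genes most like HIF3A, 3 to 10 were shared under the alternatives, which were chosen after seeing the data. Median scaling put the median of all probes between day 100 and day 10 at 0.17, and normexp at 0.25, against -0.07. Low signals limit HIF3A at day 10, EGLN3, CA12 and the dim HIF3A probes.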
